A study of Gallus gallus with 21 samples.

Results

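The 200 steadiest nuclear genes of the chick trunk neural tube varied between embryos by 5.67% to 9.61% of their mean level. The median over all genes that met the other conditions of the choice was 17.4%. The 200 were taken from 24356 annotated genes. The choice used CPM, the counts of a library divided by their sum and scaled to 1000000. A gene had to lie on chromosomes 1 to 15, 17 to 28, 30 or 33, hold at least 2 exon records, more than 1000 bases of exon and a span under 300000 bases, and reach a mean of 50 CPM. These conditions were met by 3772 genes, called the eligible genes here, and the 200 with the lowest coefficient of variation (CV, the SD over the mean) form the list. The mean and the CV were taken over 19 libraries. CTRL replicate 1 and KO replicate 8 stood apart in an earlier look at these data and were left out of the choice. The CV over the 19 libraries is thus what chose the genes and not a finding, while levels in the 2 other libraries were not used.

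The study sequenced polyadenylated RNA from the trunk portion of neural tubes of chick embryos from commercial eggs. The 9 CTRL libraries carry the genotype label WT, and the 12 KO libraries the label MOXD1 KO, for embryos that received CRISPR/Cas9 constructs against MOXD1, a gene related to dopamine beta-hydroxylase. Constructs were injected into the neural tube at Hamburger Hamilton stage 10+ to 11 and electroporated from one side, so edited and unedited cells can share a library. The labels used here name neither the stage at collection, nor the share of edited cells, nor the construct in controls. Libraries held between 16164404 and 21133788 counts. The files carry gene IDs without symbols, of which 0 matched the gene list at hand, so MOXD1, tissue markers and known functions of the genes were not analysed here. Genes are therefore described by ID, position, structure and level.

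Genes with steady transcript levels are often called housekeeping genes, since many serve tasks that every cell needs, such as protein synthesis, protein breakdown and energy supply. Steady transcripts serve as reference genes, against which other transcripts are scaled. Many housekeeping genes in vertebrates share a promoter region with a neighbour that is transcribed in the opposite direction. Birds carry a few large chromosomes and many small, gene-dense microchromosomes. Female birds carry a W and a Z chromosome, and males a pair of Z chromosomes.

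The steady genes were not the most abundant ones. Mean levels of the 200 genes ran from 50.5 to 1030.1 CPM with a median of 114 CPM, against a median of 98.5 CPM over the eligible genes. Per kilobase of exon the median level was 40.3 CPM in the list and 34.5 CPM among the eligible genes. The list took 4.56% of the eligible genes with a mean of 50 to 100 CPM, 6.43% of those from 100 to 200 CPM and 6.79% of those from 200 to 500 CPM. Of 207 eligible genes at 500 CPM or more, 5 (2.42%) were in the list. The highest level class thus gave the smallest share.

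The spread of the 200 genes lay well above what the counting of fragments alone would give. Counting accounted for a CV of 0.717% to 3.24% in these genes, with a median of 2.16%. With the counting part removed, a CV of 5.28% to 9.49% was left, against a median of 17.3% over the eligible genes. Ranked by the remaining CV, 193 of the 200 genes were again among the 200 lowest. The highest of the 19 libraries stood at 1.21 to 1.59 times the lowest, with a median of 1.37 in the list and 1.94 over the eligible genes. The threshold fell within a continuous range, with CVs of 9.60% and 9.61% for the last genes inside and of 9.62% and 9.63% for the first genes outside.

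**Figure D1:**
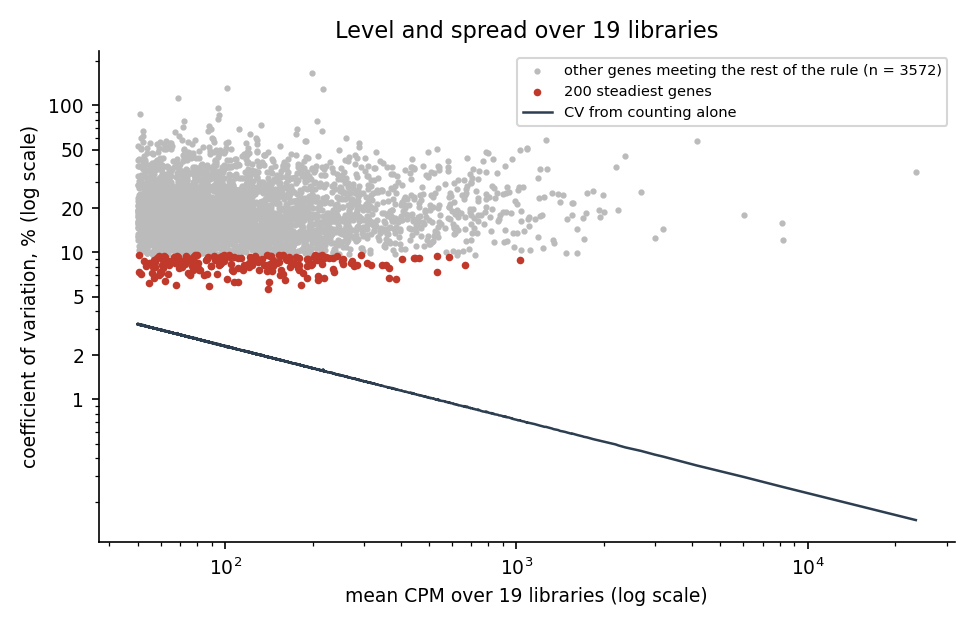
Coefficient of variation over 19 libraries against mean CPM, both on log axes, for the 200 steadiest genes (red) and the other eligible genes (grey), with the CV that counting alone gives (line). The red genes lie between 50.5 and 1030.1 CPM and above the line, at 5.67% to 9.61%.

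The list held a larger share of genes on chromosomes numbered 11 and higher, and fewer genes of long span, than the eligible genes. Of the 200 genes, 103 (51.5%) lay on chromosomes numbered 11 and higher, against 41.4% of the eligible genes, and 63 (31.5%) lay on chromosomes 1 to 5, again against 41.4%. Chromosome 25 gave 9 of its 64 eligible genes and chromosome 23 gave 9 of 83, while chromosome 2 gave 9 of 305 and chromosome 30 none of 33. Not all chromosomes numbered 11 and higher gave many. Chromosomes 15, 19, 27 and 33 gave 3 of 114, 3 of 89, 3 of 87 and 2 of 87. The median span was 14201 bases in the list and 17281.5 bases among the eligible genes, and the upper quartile was 23644 against 37685 bases. The lower quartile was similar, at 8380 against 8480 bases. The median number of exons was 12 in both after overlapping exon records were merged. Few genes had under 5 exons, 8 of 200 (4.0%) against 8.46% of the eligible genes. These shares describe the list and were not tested.

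More of the steady genes had a neighbour that starts close by and runs the other way. A gene on the opposite strand began within 1000 bases upstream for 45 of the 200 genes (22.5%), against 14.95% of the eligible genes. Within 500 bases the shares were 18% (36 genes) and 11.4%. In none of these pairs were both genes in the list. The plus strand held 100 of the 200 genes. Among list members, 1 pair were next neighbours, on the plus strand of chromosome 22 between 2903466 and 2921567 of the GRCg6a assembly. Exons or introns of 25 genes (12.5%) overlapped a gene on the same strand, close to the 11.9% of the eligible genes. On the other strand 44 genes (22.0%) overlapped a gene, against 16.3% of the eligible genes. These shares were not tested, and chromosome and span were not matched between the list and the eligible genes. Per the file header, fragments assigned to more than 1 gene were not counted.

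The steadiest of the eligible genes was ENSGALG00000016894 (chromosome 1, minus strand, 147366070 to 147401831 in GRCg6a), with 13 merged exons. Its level was lowest at 121 CPM, 144 CPM at the median and 153 CPM at the highest in CTRL, and 116, 135 and 148 CPM in KO. The groups overlapped over nearly their whole range, and the lowest value of either group was that of CTRL replicate 1 or KO replicate 8. Both libraries lay below the lowest level of this gene in the 19 others, 125 CPM. The log2 change from CTRL to KO was -0.061 (SE 0.071, edgeR's quasi-likelihood test, adjusted p = 0.890).

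ENSGALG00000000657 came next, with a CV of 5.90% (chromosome 11, minus strand, 18938562 to 18946393). Its lowest, median and highest levels were 78.8, 87.3 and 106 CPM in CTRL and 80.4, 86.6 and 99.3 CPM in KO. The highest control was CTRL replicate 1, and the group medians differed by less than 1 CPM. The log2 change was -0.001 (SE 0.056, edgeR's quasi-likelihood test, adjusted p = 0.999), a sign that other fits turned.

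The gene with the most counts in the list was ENSGALG00000013537 (chromosome 25, minus strand, 2866149 to 2882180), with a mean of 1030.1 CPM ± 91.5 (SD, n = 19). Per kilobase of exon this was 166 CPM. CTRL replicate 1 had 705.5 CPM of it and KO replicate 8 had 686 CPM, below all of the 19 other libraries, whose lowest was 860.1 CPM. ENSGALG00000008169 (chromosome 1, plus strand, 1696185 to 1712220) had a mean of 667 CPM ± 54.7 (SD, n = 19), or 189 CPM per kilobase. It stood at 719.7 and 749 CPM in the same 2 libraries, inside the range of 592 to 769 CPM of the 19. Of the most abundant pair, 1 gene thus held in both libraries and 1 did not.

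**Figure D2:**
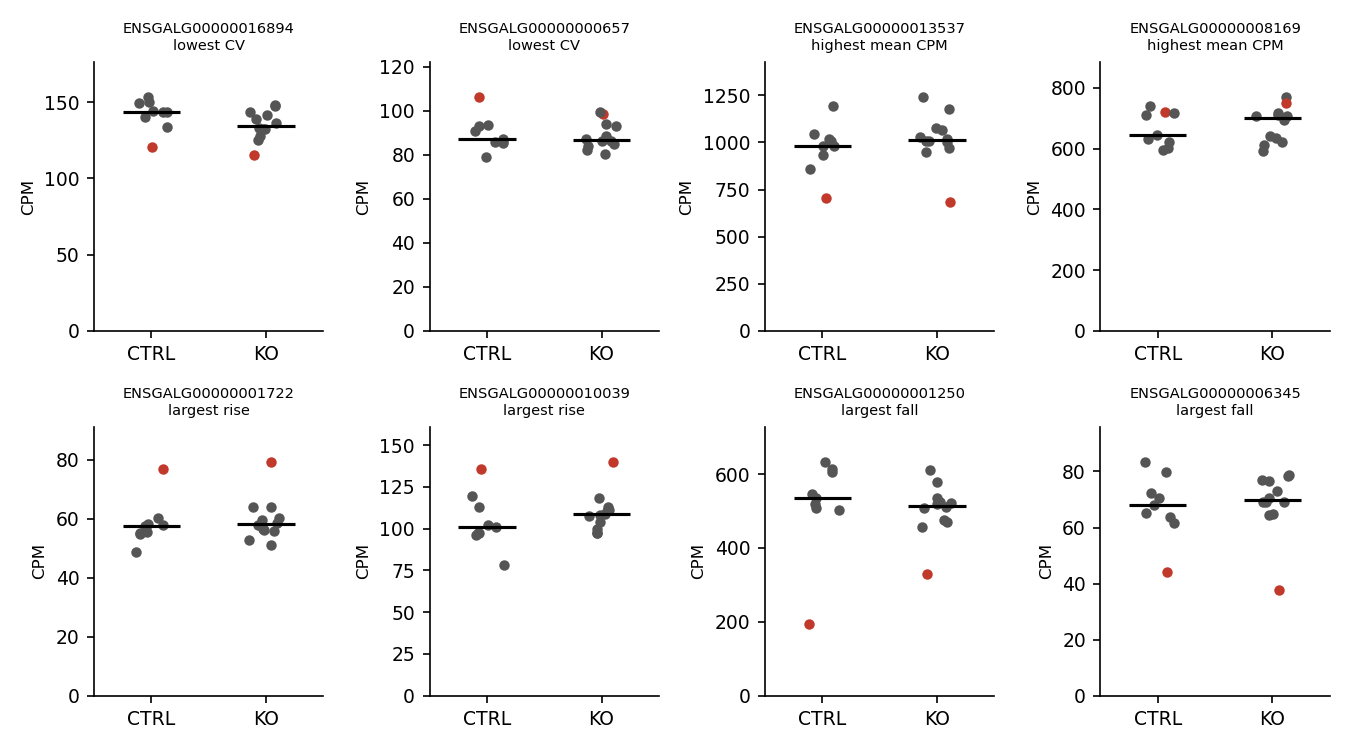
CPM of 8 named genes in each CTRL and KO library (points, linear axes from 0), with the median of each group as a line and CTRL replicate 1 and KO replicate 8 in red. The red points lie apart for the genes chosen for their rise or fall, such as 194 CPM of ENSGALG00000001250 in CTRL replicate 1. They are also the lowest points for ENSGALG00000016894 and ENSGALG00000013537, and CTRL replicate 1 is the highest point for ENSGALG00000000657. The 2 groups overlap in all 8 panels.

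In CTRL replicate 1 and KO replicate 8 most of the steady genes kept their level. A gene was counted as held where it lay less than 25% above and less than 20% below its median over the 19 other libraries. In CTRL replicate 1, 159 of the 200 genes held (79.5%), against 54.8% of the eligible genes. In KO replicate 8, also 159 held (79.5%), against 40.9% of the eligible genes. Of the genes that did not hold, 12 stood above and 29 below in CTRL replicate 1, where 23.5% and 21.7% of the eligible genes did. In KO replicate 8, 15 stood above and 26 below, against 36.5% and 22.7%. In both libraries 135 genes held (67.5%), against 32.1% of the eligible genes. Measured against each gene's own range over the 19 libraries, the order differed between the 2. Inside that range lay 61.5% of the list in CTRL replicate 1, against 67.7% of the eligible genes. For KO replicate 8 the shares were 58.0% and 51.9%. The rule made that range narrow for the list. The median log2 difference from the 19 libraries was -0.00035 in CTRL replicate 1 and 0.045 in KO replicate 8 over the list, and 0.078 and 0.16 over the eligible genes. These medians depended on the scale. With edgeR's library scaling (TMM) the list's median in CTRL replicate 1 was -0.14, below the range of -0.060 to 0.12 in the 19 libraries, and in KO replicate 8 it was -0.045. On that scale the list summed to 29053 to 32945 CPM in the 19 libraries, and both others were lower, CTRL replicate 1 with 26400.2 CPM and KO replicate 8 with 28083 CPM. Because these libraries were picked for standing apart, no test was made.

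The share held was lower at each step of higher CV across the eligible genes. In KO replicate 8 it was 56.1% for ranks 201 to 1000, 43.4% for ranks 1001 to 2000, 32.3% for ranks 2001 to 3000 and 22.9% beyond. In CTRL replicate 1 the same steps gave 73.0%, 59.9%, 46.1% and 34.1%. Steadiness over 19 libraries thus went with smaller differences in libraries that had no part in the ranking. The same order was seen inside the list, where 88 of the first 100 genes held in each of the 2 libraries and 71 of the other 100.

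A list tends to look steadier in the libraries that chose it, so each of the 19 libraries was also left out in turn and the 200 genes were chosen again from the other 18. The new lists shared 164 to 191 genes with the original. Read in the library left out, 159 to 200 of the 200 genes held, with a median of 192. CTRL replicate 4, at 159, and CTRL replicate 3, at 163, were lowest, and KO replicate 3, at 200, was highest. The count of 159 in CTRL replicate 1 and KO replicate 8 was thus matched by CTRL replicate 4 and was lower than in the 18 others.

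Larger departures in the list were somewhat more frequent in the 2 libraries than in the 19. Within 1.5-fold lay 195 genes in CTRL replicate 1 and 192 in KO replicate 8, against 197 to 200 in the 19 libraries read the same way. The SD of the log2 differences was 0.27 in both, and 0.098 to 0.23 in the 19. CTRL replicate 3 came closest, with 197 genes and an SD of 0.23. Of its eligible genes 77.1% lay within 1.5-fold, against 77.8% in CTRL replicate 1 and 67.0% in KO replicate 8. At 1.5-fold, CTRL replicate 1 was thus not apart from CTRL replicate 3 over the eligible genes. Within 2-fold it was, with 89.0% of the eligible genes against 93.75% in CTRL replicate 3, the lowest of the 19. KO replicate 8 had 86.4%. In the list, all departures beyond 1.5-fold were downward, with 5 genes in CTRL replicate 1 and 8 in KO replicate 8, and 0 genes upward in either. Among the eligible genes, 7.87% were at least 1.5-fold higher and 14.4% at least 1.5-fold lower in CTRL replicate 1, and 16.5% in each direction in KO replicate 8.

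**Figure D3:**
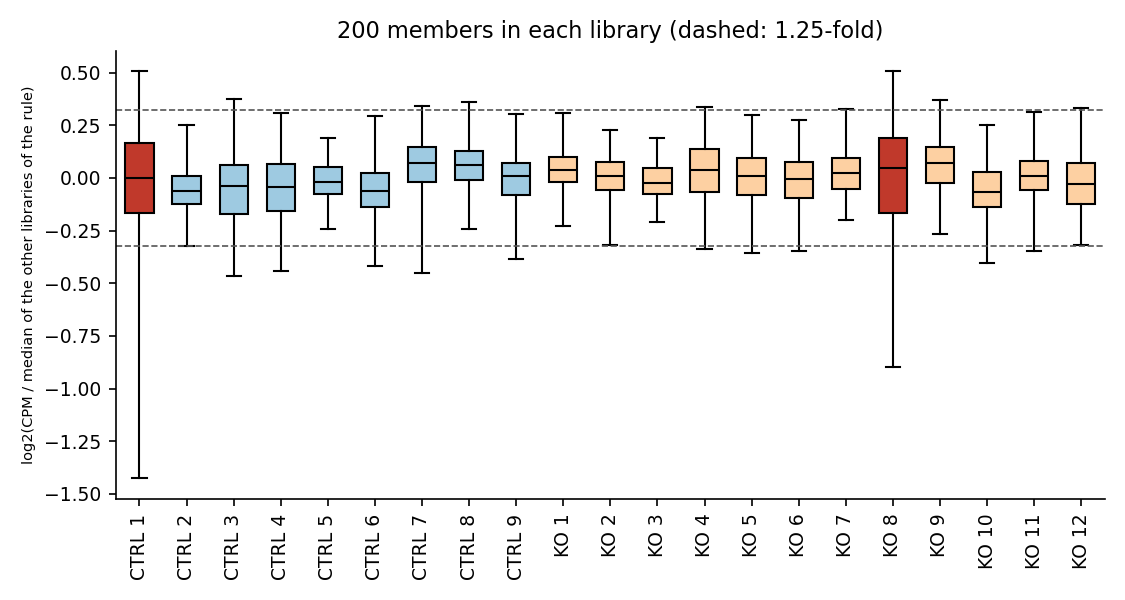
Log2 of CPM over the median of the other libraries of the rule for the 200 genes in each library (boxes: quartiles and median, whiskers: lowest and highest gene), with CTRL in blue, KO in orange and the 2 libraries left out of the choice in red. The red boxes are centred near 0 like the others but are wider, with whiskers down to -1.43 and -0.90.

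**Figure D4:**
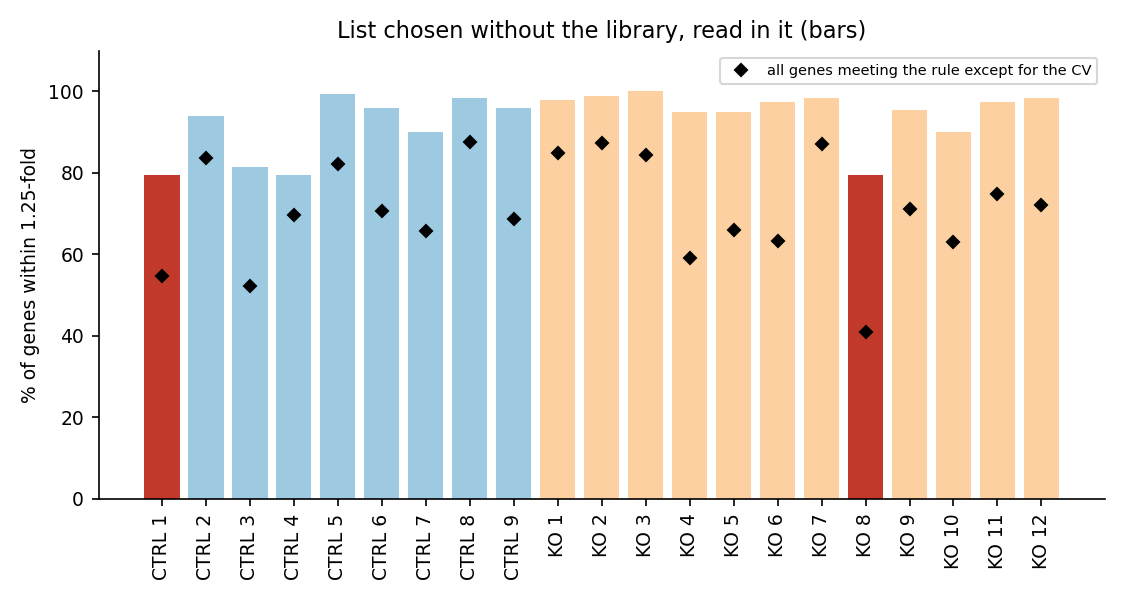
Percent of 200 genes that held in each library, for a list chosen without that library (bars, red for the 2 libraries left out throughout), and the same for all eligible genes (diamonds). Bars run from 79.5% to 100%, and every bar stands above its diamond.

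By the mean log2 difference over both libraries, the steady genes furthest below were ENSGALG00000001250 and ENSGALG00000006345. ENSGALG00000001250 (chromosome 24, minus strand, 1470296 to 1511525) ranged from 457 to 633 CPM in the 19 libraries. Its level was 194 CPM in CTRL replicate 1, and KO replicate 8 had 329 CPM. These were 0.372 and 0.631 times the median of the 19. ENSGALG00000006345 (chromosome 12, plus strand, 11175609 to 11186645) stood at 44.2 and 37.8 CPM against 61.7 to 83.4 CPM. At 0.537 times its median it was furthest below in KO replicate 8. Both genes were below the range of the 19 libraries in each of the 2.

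By the same mean, ENSGALG00000001722 and ENSGALG00000010039 stood furthest above, while other genes reached 1.42 times their median in 1 of the libraries. ENSGALG00000001722 (chromosome 11, plus strand, 988177 to 1000115) ranked 16 by CV and lay at 48.7 to 64.1 CPM in the 19 libraries. CTRL replicate 1 reached 77.0 CPM and KO replicate 8 reached 79.2 CPM, which was 1.34 and 1.38 times its median. ENSGALG00000010039 (chromosome 3, minus strand, 27531575 to 27695285) has the longest span of the list with 163711 bases. It stood at 135.5 and 139.8 CPM, above its range of 78.0 to 119 CPM. For both genes the excess was about as large in the CTRL as in the KO library.

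Of the 8 genes at or below 1/1.5 of their median in at least 1 of the libraries, 5 were so in both. Among the eligible genes 14.4% were so in CTRL replicate 1 and 16.5% in KO replicate 8. Their share in both libraries is not given here, so the 5 genes have no background to be judged by. The 3 of these 5 without a name here lay on chromosome 17 at 7176124 to 7189309, on chromosome 1 at 53635743 to 53648531 and on chromosome 10 at 2969171 to 2977199. The first had a median of 363 CPM in the 19 libraries and stood at 232 and 234 CPM in the pair. The second had a median of 231 CPM and stood at 137 and 139 CPM, and the third had 206 CPM and stood at 118 and 128 CPM. They were chosen after their values were seen. Levels in CTRL replicate 1 and KO replicate 8 were compared with the same 19 libraries, so their likeness is given as values and not tested.

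Targeting MOXD1 went with no detectable change in any of the 200 genes. All 200 entered the edgeR fit of 9 CTRL against 12 KO libraries over 13809 genes, and 0 passed an adjusted p of 0.05, as did 0 of all genes (0%). The smallest adjusted p in the list was 0.704. At an unadjusted p under 0.05 there were 4 of 200 genes (2.00%), against 7.08% of all genes tested. Of the 4, 3 were higher, against 2.58% of all genes, and 1 was lower, against 4.50%. DESeq2 called 0 and had 11 of the 200 (5.5%) under an unadjusted 0.05, against 5.62% of the eligible genes and 6.34% of all genes with counts. The fitted fold changes ran from 0.912 to 1.13. A low count was built in, because a gene that differed strongly between the groups could not have a low CV over libraries of both.

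Intervals for the size of change were worked out from the F statistic of the fit. They describe the list and are not a test of it. For a change of under 25% up or 20% down, the 95% interval was wholly inside the limits in 196 of the 200 genes (98.0%), against 42.4% of the eligible genes and 20.2% of all genes. All 200 intervals lay inside 1.5-fold. The intervals speak for the whole tissue of a library, in which fewer cells of a type and less RNA per cell cannot be told apart. They rest on CVs that the rule chose to be small, so the rule bounds both the estimates and the width of the intervals. The share inside the limits is thus partly built in, and the intervals may be too narrow.

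The 200 genes leaned slightly upward in KO. The median log2 change was 0.039, with 142 genes higher (71.0%), against a median of 0.026 and 58.0% higher among the eligible genes and -0.016 and 46.8% over all genes tested. On CPM by column sum, without edgeR's library scaling, 132 of the 200 were higher and the median was 0.025. The summed level of the list was 29816 CPM ± 1041 (SD, n = 9) in CTRL and 30432 CPM ± 718 (SD, n = 12) in KO. Sums ran from 28869.8 to 31876 CPM in CTRL and from 29137 to 31859.5 CPM in KO, so the groups overlapped over most of their range.

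The 4 genes with the smallest p were 3 that stood higher and 1 that stood lower in KO, none past the adjusted threshold. They are given by position, having been chosen after their values were seen. On chromosome 1, the gene at 75447599 to 75455190 averaged 154 CPM ± 13.2 (SD, n = 9) in CTRL and 173 CPM ± 12.1 (SD, n = 12) in KO, a log2 change of 0.18 (SE 0.067, edgeR adjusted p = 0.704). The gene at 48197831 to 48210529 on chromosome 5 had medians of 91.5 CPM in CTRL and 102 CPM in KO. A gene on chromosome 17 at 5999621 to 6003436 had 56.4 CPM ± 3.88 in CTRL and 61.7 CPM ± 5.34 in KO. The lower gene, on chromosome 2 at 98528472 to 98559608, had 118 CPM ± 10.1 in CTRL and 106 CPM ± 8.36 in KO. In none of the 200 genes were the ranges of the groups apart, as in 0% of the eligible genes.

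**Figure D5:**
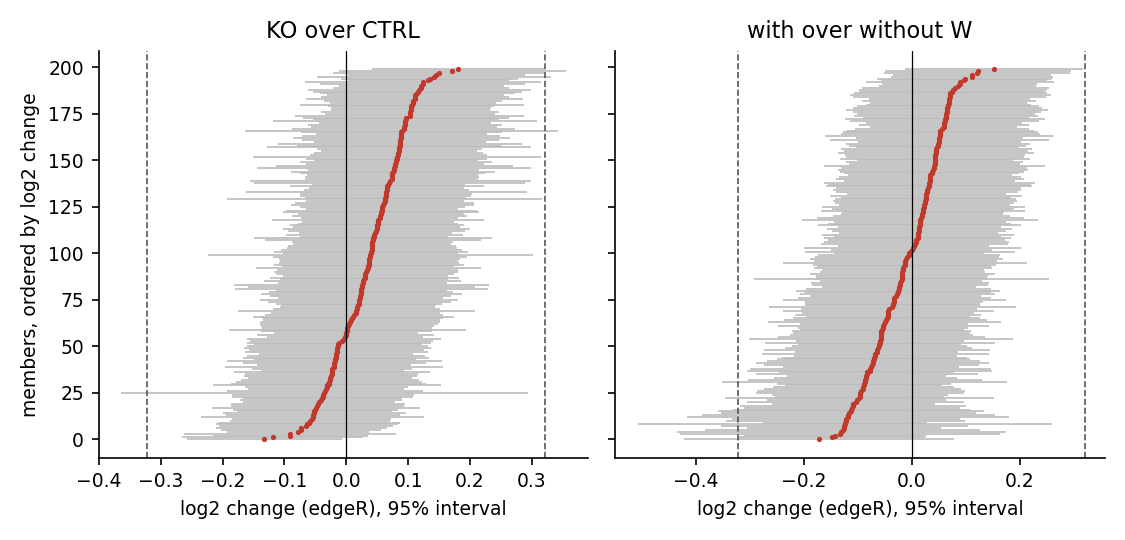
Log2 change (edgeR) of each of the 200 genes with a 95% interval worked out from the F statistic, in order of size. KO over CTRL is on the left and libraries with over without W transcripts on the right. Dashed lines mark 25% up and 20% down. Estimates lie between -0.13 and 0.18 on the left and between -0.17 and 0.15 on the right.

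W transcripts were present in 15 libraries and nearly absent in 6, CTRL replicate 9 and KO replicates 1, 3, 5, 9 and 10, split at 0.05% of counts. Embryo sex is not stated in the labels. The steady genes did not detectably follow this split. With group in the model, 0 of the 200 genes passed an adjusted p of 0.05, against 0.053% of the eligible genes (2 genes) and 1.74% of all 13809 genes, which include W and Z genes that the rule left out, 0.282% higher and 1.46% lower with W transcripts. At an unadjusted p under 0.05 edgeR had 0 of the 200 genes, 1.46% of the eligible genes and 4.97% of all genes, 1.75% higher and 3.22% lower. The smallest unadjusted p in the list was 0.0695. The rule bounds this difference too, since both kinds of library were among the 19.

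The median log2 difference of the list between libraries with and without W transcripts was -0.0053, with 97 of 200 genes higher (48.5%). Among the eligible genes it was 0.023 with 57.1% higher, and over all genes 0.038 with 59.0% higher. With median-of-ratios factors the medians were -0.020, 0.0083 and 0.024. Fitted folds ran from 0.888 to 1.11, and the 95% interval lay inside 25% up and 20% down for 185 genes (92.5%), against 32.2% of the eligible genes. The rule bounds these intervals as well. The summed level was 30039.8 CPM ± 889.8 (SD, n = 15) with and 30488 CPM ± 932 (SD, n = 6) without W transcripts. These sums, and the medians and ranges below, were not adjusted for group. All libraries without W transcripts but CTRL replicate 9 were KO, and sums were higher on average in KO. CTRL replicate 1 and KO replicate 8 were both among the 15 libraries. ENSGALG00000016894 had a median of 140.3 CPM in the 15 and 140.1 CPM in the 6 libraries. ENSGALG00000013537 had medians of 982 and 1021 CPM. The 15 libraries reached lower, to 686 CPM in KO replicate 8 and to 860.1 CPM without the 2 left out of the choice, while the lowest of the 6 was 1003 CPM, and the ranges overlapped. In none of the 200 genes were the 2 ranges apart, against 0.0265% of the eligible genes.

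Steadiness in one group carried over to the other in part. Over the 8 CTRL libraries of the rule the median CV of the 200 genes was 8.94%, and over the 11 KO libraries it was 7.64%. These values were part of the choice. When 200 genes were chosen from the 8 CTRL libraries alone, their median CV in the 11 KO libraries, which had no part in that choice, was 10.0%, against 16.3% over the 3900 genes eligible in at least 1 of the groups. Of these 200, 188 lay below that median. Chosen in KO and read in CTRL, the median CV was 11.6% against 18.4%, with 187 of 200 below. The 2 lists shared 54 genes, 27% of each. Genes steady in one group thus mostly lay below the median CV in the other, while most of the list differed.

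Membership also depended on the scale. Mitochondrial transcripts took 6.68% to 14.3% of counts, highest in KO replicate 6, and they enter the column sum. With mitochondrial genes left out of the sum, 153 of the 200 genes stayed among the 200 steadiest, and with edgeR's library scaling 152 did. Counted over nuclear genes, KO replicate 6 had the second highest summed level of the list, at 35202 CPM, and by column sum it was the median of the 21 libraries at 30174 CPM. The list thus depended in part on whether mitochondrial transcripts entered the sum. Why their share differed between libraries was not tested.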

How the data were processed

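The authors deposited raw fragment counts per gene for 21 libraries and, as a further column, exon bases per gene (a length, used for CPM per kilobase). Per the file headers, featureCounts 2.0.1 summed exon fragments into genes on Ensembl release 101 of GRCg6a, reverse-stranded, as read pairs and without multi-mapping or multi-overlap options. Per the submitters' processing notes STAR and DESeq2 were also used. Per the labels' protocols, libraries came from 50 ng of total RNA with 14 PCR cycles; no molecular identifiers are named, so counting errors cover counting alone. No other value columns were present (0).

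CPM, CV, features and lists were computed with Python 3.11.15. Groups and W state (split at 0.05% of counts) were compared with edgeR 4.0.16 (R 4.3.3), TMM factors, filterByExpr, quasi-likelihood F test, 2-sided, Benjamini-Hochberg adjustment over 13809 genes; the W fit also held group. The fits and the ranking were also run on simulated data. The planted changes were larger than any fitted in the list, and the planted steady genes had a CV set apart from the rest. Those runs thus do not speak to changes as small, or a threshold as continuous, as those seen here. Named genes are the 2 with the lowest CV, the 2 with the highest mean CPM and the 2 furthest up and down in CTRL replicate 1 and KO replicate 8. The members and lists were chosen with earlier results of these data known. The rule does not say over which libraries the mean of 50 CPM is taken; the 19 were used, and all 21 would give 198 of the same 200 genes. The labels do not say whether replicate numbers pair embryos. The p-values judge each change against the spread between these libraries.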

Additional observations from a re-analysis of the deposited data

Results flagged for a closer look

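Among the controls, 16 measures were looked at, and in 4 of them CTRL replicate 1 lay far from the remaining 8. Chance alone marks about 1 in 20 groups, but these values were not independent, and 2 of them belong to genes named for standing far out in this library and KO replicate 8. CTRL replicate 1 had far fewer of the 200 genes that held (159) and a far larger SD of their log2 differences (0.27) than the other controls, which is partly given, since the other 8 helped to choose the list. With lists chosen without the library read, its count of 159 did not stand apart, as CTRL replicate 4 also had 159. Its SD of 0.27 was still the largest of the controls, with CTRL replicate 3 next at 0.23. ENSGALG00000001722 stood at 77.0 CPM in CTRL replicate 1, and ENSGALG00000001250 at 194 CPM. KO libraries, 12 in number, were not looked at for this.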

How the results depend on the processing

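No gene of the list passed the adjusted threshold in any of 9 alternative fits of KO against CTRL or 5 of W state, and the count at an unadjusted p under 0.05 ran from 1 to 11 and from 0 to 1. Lists made from CTRL alone or KO alone shared 106 and 116 genes with the 200. A list of genes of 100 CPM or more shared 112, a number fixed by the rule. The 88 genes below that level could not enter it, and the 112 others had to stay. The other ways of choosing, 1 library left out at a time included (164 to 191), shared 146 to 198. Within 1.1-fold, 80 genes held in CTRL replicate 1, 74 in KO replicate 8 and 35 in both; 85 lay inside the range of the 19 libraries in both, and scaling by TMM or without mitochondrial genes gave 152 to 160 in either library. The log2 change of ENSGALG00000000657 in KO turned positive with median-of-ratios factors (0.0081), no filter (0.013), DESeq2 (0.0088), both libraries left out (0.021), the W share as covariate (0.00059) and the replicate block (0.024, and 0.066 without numbers 1 and 8). Its W difference turned negative with median-of-ratios factors (-0.011), both libraries left out (-0.012) and KO alone (-0.0047). ENSGALG00000006345 turned to -0.0034 in KO with the W share as covariate, and with a replicate block by the numbers in the library names ENSGALG00000001722 turned to -0.011 and ENSGALG00000001250 to 0.094. The cause was not tested. Libraries with equal numbers in their titles correlated over 0.1 in 4 of 9 pairs, and in 0 was the CTRL library closest to its own number. By the numbers in the library names, which differ, it was 5 of 8 pairs and 1. Those correlations ran from -0.44 to 0.58, so this check cannot decide whether equal numbers pair embryos. With the replicate block by title 0 genes of the list were called and 2 (1.0%) had an unadjusted p under 0.05, against 11.7% of the eligible and 11.4% of all genes. By library name it was 0 and 3 (1.5%), against 5.33% and 7.96%. Lists with 1 library left out, the mean over all 21 libraries the block without numbers 1 and 8 and the block by library name were chosen after seeing the data.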
